A study of Mus musculus with 7 samples.

Results

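The genes described here are 10 members of the transforming growth factor beta (TGF-beta) family and its extracellular handling: the ligands Tgfb1, Tgfb2 and Tgfb3, the receptors Tgfbr1, Tgfbr2 and Tgfbr3, the activin and inhibin subunits Inhba and Inhbb, and the latent TGF-beta binding proteins Ltbp1 and Ltbp3. They were chosen by name, with earlier results of these data known. All 10 were found among the 50600 entries of the bulk gene table and among the 15536 genes of the single-cell table. The data came from adult C57Bl6J mice. The bulk libraries of cultured cells came from 4 separate primary cultures of neural stem and progenitor cells (NSPCs) isolated from the dentate gyrus (DG) of mice labelled 6-8 weeks old, 2 female (F1, F2) and 2 male (M1, M2). They were at passage 6 to 15 and grew on laminin in Neurobasal A with B27 lacking vitamin A and with EGF and FGF2 at 20 ng/ml each, so all culture values describe cells under these 2 mitogens. They were set against 2 whole DG, a tissue of neurons, glia and vessel cells, 1 female (F1) and 1 male (M2), from mice labelled 7-9 weeks old. A single-cell library pooled 3 NSPC cultures, 2 female and 1 male, from mice labelled 6-9 weeks old, grown in the same medium at the same passages, and held 14912 cells with distinct barcodes, which the authors had placed in clusters 0 to 5.

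TGF-beta ligands are secreted as latent complexes in which the mature dimer stays wrapped in its own propeptide, and LTBPs tether that complex to matrix until integrins or proteases release it. The free ligand binds the type II receptor TGFBR2, which phosphorylates the type I receptor TGFBR1, and the receptor pair then phosphorylates SMAD2 and SMAD3. Activins, dimers of inhibin beta subunits, use other receptors but reach the same SMADs. In the adult hippocampus this pathway is known for restraining the division of neural progenitors and for acting on their newborn progeny.

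Bulk library totals ran from 9917697 to 11747408 counts in the cultures and were 16676618 and 17351636 counts in whole DG, and CPM below are counts per 1000000 of those totals after TMM scaling. Culture libraries were made with a SMART-Seq HT kit and whole DG libraries with NEBNext Ultra II Directional, and the labels give RNA integrity numbers of 10 for cultures and over 8 for whole DG, so group, kit and RNA integrity cannot be told apart. The labelled cells were checked against markers. The 9 dividing-cell markers were all higher in cultures (sum 3295 to 4501 CPM, against 230.1 to 244.5 CPM in whole DG) and the 12 neuronal markers all lower (778.5 to 961.6 CPM, against 13390 to 14220 CPM). Of 14 stem and progenitor markers 8 were higher and 6 lower in cultures. Among them Nes, an intermediate filament of neural progenitors, averaged 1216 CPM in cultures and 9.74 CPM in whole DG, whereas the progenitor transcription factor Sox2 averaged 6.11 and 36.3 CPM in cultures and whole DG. The microglial markers Aif1 and C1qa and the endothelial marker Cldn5 had 0 counts in all 4 cultures. Of 11 oligodendrocyte-lineage markers 7 were lower in cultures, with Sox10 at 0 counts, 2 did not pass (Olig2, Cnp) and 2 were higher, the lineage transcription factor Olig1 (2456 CPM in cultures, 74.0 CPM in whole DG) and the proteoglycan Cspg4 (121.2 and 18.7 CPM in cultures and whole DG), so the list summed to 1831 to 3649 CPM in cultures, against 1421 to 1727 CPM in whole DG. Of 10 astrocyte markers 2 were higher in cultures, 5 lower and 3 not called (sum 811.1 to 1652 CPM, against 3759 to 4309 CPM in whole DG). In bulk tissue, fewer cells of a type and less RNA per cell cannot be told apart.

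Of the 10 members, 3 were higher in cultures than in whole DG (Tgfbr2, Inhbb, Ltbp1), 5 were lower (Tgfb1, Tgfb3, Tgfbr3, Inhba, Ltbp3) and 2 did not pass the threshold (Tgfb2, Tgfbr1), by edgeR's quasi-likelihood test at an adjusted p under 0.05. Over all 18088 genes tested, 35.6% were higher, 41.7% lower and 77.3% called in either direction, so a share of 8 called members in 10 was near the background. The median log2 difference of the members, cultures over whole DG, was -0.85, against -0.13 over all genes tested. In 9 of the 10 the CPM of the 2 groups did not overlap, which was the case for 83.6% of all genes tested. Within the ligands and within the receptors, the members differed in direction or in amount.

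**Figure D1:**
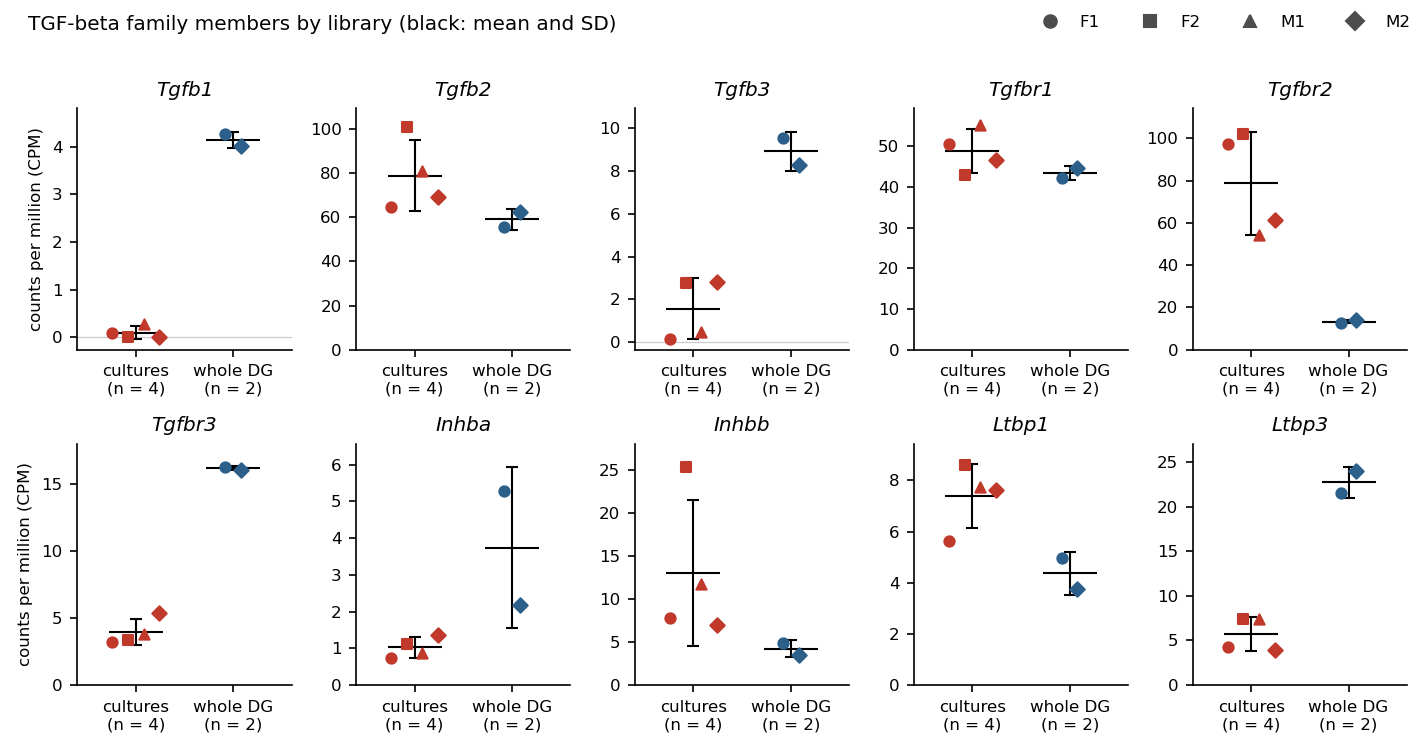
CPM (vertical axes, linear, each panel on its own scale) of the 10 members in the 4 culture and 2 whole DG libraries. Symbols give the library name and black lines the mean and SD. Tgfb1 lay at or near 0 in all 4 cultures, Tgfbr2 was higher in every culture than in both whole DG, and Tgfbr1 is the member whose groups overlapped.

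Among the ligands, Tgfb1 was nearly missing from cultures, Tgfb3 was low and uneven, and Tgfb2 was abundant in both groups. Tgfb1, the founding ligand of the family (mouse GRCm38 chr7:25687002-25705077, plus strand), had 0.0827, 0, 0.287 and 0 CPM in cultures F1, F2, M1 and M2, against 4.26 and 4.01 CPM in whole DG F1 and M2. These were 4 reads in all 4 cultures together and 132 reads in both whole DG. Counts of 0 allow up to 0.260 CPM in culture F2 and 0.293 CPM in culture M2, taking a floor of 3 counts. Every culture was below both whole DG, and the fitted log2 difference was -5.37 ± 0.72 (SE; edgeR adjusted p = 0.000195). The summed counts gave a level 45.8 times higher in whole DG than in cultures, with a counting interval of 17.5 to 171. Without culture M1, which held 3 of the 4 reads, the fitted log2 difference was -6.73, resting on 1 culture read. Microglia, known for making Tgfb1 in the brain, were marked by a list of which 12 of 12 genes were lower in cultures (sum 38.4 to 58.5 CPM, against 405.7 to 420.4 CPM in whole DG), and their part in this difference was not tested.

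Tgfb3, a ligand known for roles in palate and lung development (chr12:86056745-86079041, minus strand), had 0.165, 2.77, 0.478 and 2.83 CPM in cultures F1, F2, M1 and M2, against 9.55 and 8.27 CPM in whole DG F1 and M2. Cultures F2 and M2, with 32 and 29 counts, stood above F1 and M1, with 2 and 5 counts, so the cultures split within each sex, yet all 4 stayed below both whole DG. The log2 difference was -2.51 ± 0.76 (SE; edgeR adjusted p = 0.0152). The call was lost without whole DG F1 (-2.40, adjusted p = 0.0811) and without whole DG M2 (-2.61, adjusted p = 0.0600). Up to 7.60% of its exon bases are shared with a non-coding gene on the other strand, from which its reads cannot be told apart if counting ignored strand.

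Tgfb2, a ligand made by many neural and glial cells (chr1:186622792-186705989, minus strand), had 64.5, 100.6, 80.6 and 69.1 CPM in cultures F1, F2, M1 and M2, against 55.7 and 62.2 CPM in whole DG F1 and M2. The lowest culture, F1, lay just above the higher whole DG, so the groups did not overlap, but the gap between them was smaller than the spread among cultures. The log2 difference of 0.42 ± 0.20 (SE) did not pass the threshold (edgeR adjusted p = 0.0817). It passed without culture F1 (0.51, adjusted p = 0.0403).

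The make-up of the ligand trio was compared per unit of exon length, in CPM per kilobase, since longer transcripts collect more reads. Tgfb2 made up 99.4, 95.5, 98.6 and 93.5% of the trio in cultures F1, F2, M1 and M2, against 72.4 and 76.8% in whole DG F1 and M2. Tgfb3 made up 3.12 ± 2.91% in cultures (SD, n = 4) and 19.4 ± 2.68% in whole DG (SD, n = 2), and Tgfb1 0.137 ± 0.190% in cultures and 6.03 ± 0.475% in whole DG. For each of the 3 ligands the groups did not overlap, and the exact two-sided permutation p was 0.0667, the smallest that the 15 splits of 4 against 2 libraries can give, so this test cannot reach 0.05. The 3 shares of a library add up to the whole, so these are not 3 separate results. Tgfb2 was the leading ligand in all 6 libraries.

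The promoters of Tgfb1 and Tgfb2 are shown because these ligands lie at the lowest and the highest level of the members in cultures, and that of Tgfbr2 because it rose most. Each line gives the 250 bases before the gene's start, 5′ to 3′ on the gene's strand, from RefSeq on GRCm38.p6, which held promoters for 8 of the 10 members. Capitals mark matches, on either strand, to GGGCGG (the GC box), TATAAA (the TATA box), CCAAT (the CCAAT box) or CAGACA (a sequence bound by Smads), with no match overlapping another.
Tgfb1 (chr7:25686752-25687001, plus): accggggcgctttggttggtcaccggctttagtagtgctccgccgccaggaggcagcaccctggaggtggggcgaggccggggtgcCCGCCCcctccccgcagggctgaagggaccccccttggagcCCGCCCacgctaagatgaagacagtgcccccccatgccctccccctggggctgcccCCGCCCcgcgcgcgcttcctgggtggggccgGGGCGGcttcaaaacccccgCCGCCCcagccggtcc
Tgfb2 (chr1:186705990-186706239, minus): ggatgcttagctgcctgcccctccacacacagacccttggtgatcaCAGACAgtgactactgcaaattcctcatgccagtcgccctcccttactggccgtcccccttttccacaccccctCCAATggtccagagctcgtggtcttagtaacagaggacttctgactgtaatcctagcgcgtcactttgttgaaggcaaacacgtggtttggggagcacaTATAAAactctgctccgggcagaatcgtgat
Tgfbr2 (chr9:116175364-116175613, minus): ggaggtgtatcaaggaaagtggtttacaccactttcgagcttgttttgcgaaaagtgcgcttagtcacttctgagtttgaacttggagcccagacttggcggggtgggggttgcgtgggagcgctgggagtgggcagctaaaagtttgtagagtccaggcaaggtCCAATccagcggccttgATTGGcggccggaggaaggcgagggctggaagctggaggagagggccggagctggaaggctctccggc
The Tgfb1 stretch was 75.2% G and C and held 5 GC boxes and no TATAAA, whereas the Tgfb2 stretch was 53.6% G and C and held TATAAA at -31 to -26, CCAAT at -130 to -126 and CAGACA at -204 to -199 from the start. The Tgfbr2 stretch was 58.4% G and C and held CCAAT at -85 to -81 and its reverse at -68 to -64. TGACGTCA (the cAMP response element) and TGANTCA (the AP-1 site) were also searched for and had no match in these 3. Over all 32851 RefSeq promoters, in windows reaching 50 bases further past the start, 13.6% held TATAAA, 35.7% GGGCGG, 37.4% CCAAT, 21.0% CAGACA, 1.79% TGACGTCA and 7.81% TGANTCA. These matches are a description of the letters and say nothing of binding.

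Among the receptors, the ligand-binding type II receptor rose in cultures, the type I receptor did not pass the threshold, and the co-receptor fell. Tgfbr2 (chr9:116084293-116175360, minus strand) had 97.4, 101.8, 54.3 and 61.5 CPM in cultures F1, F2, M1 and M2, against 12.8 and 13.9 CPM in whole DG F1 and M2. Even the lowest culture stood far above both whole DG, and the log2 difference was 2.56 ± 0.31 (SE; edgeR adjusted p = 0.000107). Tgfbr2 stayed called in all 15 alternatives tried, with log2 differences of 2.42 to 2.88. The 12 microglial markers were lower in cultures, as given above, and the part of cell make-up in the Tgfbr2 difference was not tested.

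Tgfbr1, the kinase that phosphorylates SMAD2 and SMAD3 (chr4:47353222-47414931, plus strand), had 50.7, 42.9, 55.3 and 46.6 CPM in cultures F1, F2, M1 and M2, against 42.4 and 44.7 CPM in whole DG F1 and M2. Culture F2 lay between the 2 whole DG, so the groups overlapped. The log2 difference of 0.17 ± 0.15 (SE) did not pass the threshold (edgeR adjusted p = 0.322), nor did it in any of 15 alternatives, which gave -0.02 to 0.35.

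Tgfbr3, or betaglycan, a co-receptor that presents TGFB2 to the type II receptor (chr5:107106570-107289629, minus strand), had 3.22, 3.38, 3.82 and 5.37 CPM in cultures F1, F2, M1 and M2, against 16.3 and 16.1 CPM in whole DG F1 and M2. All cultures were well below both whole DG, and the difference was called by edgeR (log2 -2.03 ± 0.25, SE; adjusted p = 0.000130). Markers of cells around vessels fell as well: all 12 endothelial genes were lower in cultures (sum 6.02 to 11.1 CPM, against 186.5 to 191.8 CPM in whole DG), and of 12 mural and fibroblast genes 10 were lower and 1 higher (22.8 to 46.3 CPM, against 127.2 to 154.4 CPM). Their part in the Tgfbr3 difference was not tested.

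Within the receptor trio, per unit of exon length, Tgfbr2 made up 59.1, 63.7, 42.3 and 48.6% in cultures F1, F2, M1 and M2, against 14.8 and 15.5% in whole DG F1 and M2. Tgfbr1 made up 43.1 ± 8.92% in cultures (SD, n = 4) and 61.9 ± 0.465% in whole DG (SD, n = 2), and Tgfbr3 3.53 ± 1.31% in cultures and 23.0 ± 0.918% in whole DG. The shares of all 3 receptors stood apart between the groups, but as parts of 1 whole they are not 3 separate results. The exact two-sided permutation p was 0.0667 for Tgfbr2 and Tgfbr3, again the smallest possible, and 0.133 for Tgfbr1.

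**Figure D2:**
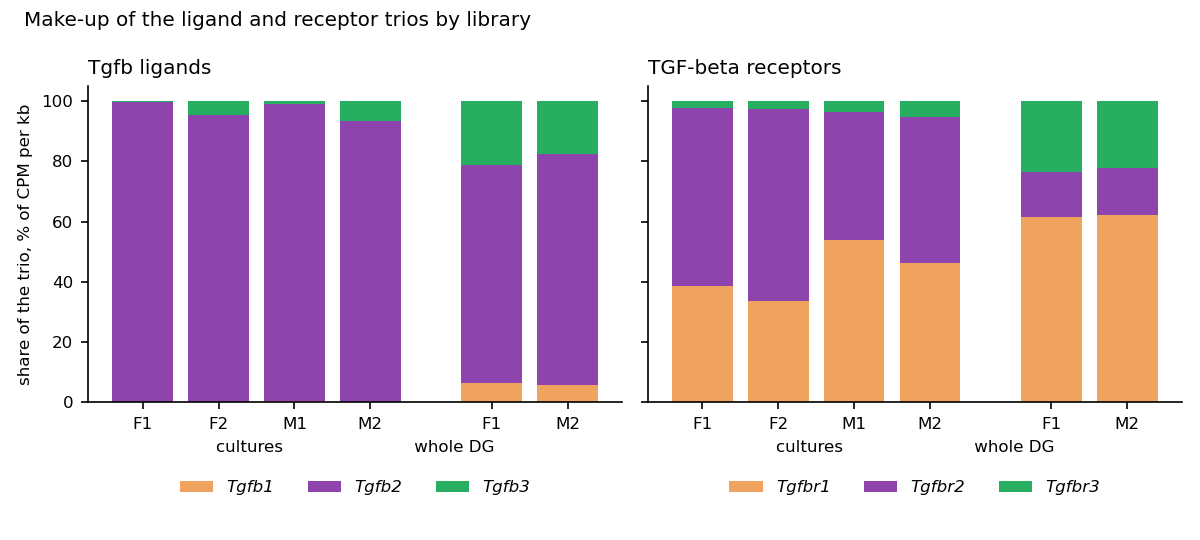
Share of each gene (percent of the trio's CPM per kilobase, vertical axis) in the 3 Tgfb ligands, left, and the 3 receptors, right, for each culture and whole DG library. Tgfb2 filled 93.5 to 99.4% of the ligand bar in cultures, against 72.4 and 76.8% in whole DG. Tgfbr2 filled 42.3 to 63.7% of the receptor bar in cultures, against 14.8 and 15.5% in whole DG.

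The activin subunits moved in opposite directions. Inhba, whose homodimer is activin A (chr13:16011851-16031621, plus strand), had 0.744, 1.13, 0.860 and 1.37 CPM in cultures F1, F2, M1 and M2, against 5.29 and 2.19 CPM in whole DG F1 and M2. The 2 whole DG differed from each other more than the cultures did, though both lay above every culture. The log2 difference was -1.86 ± 0.46 (SE; edgeR adjusted p = 0.00555), and without whole DG F1 it was -1.09 and no longer called (adjusted p = 0.170). With libraries of the same name blocked, the Inhba call was also lost (-1.70, adjusted p = 0.0518).

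Inhbb, whose homodimer is activin B (chr1:119415465-119422248, minus strand), had 7.85, 25.4, 11.8 and 7.02 CPM in cultures F1, F2, M1 and M2, against 4.91 and 3.53 CPM in whole DG F1 and M2. Culture F2 stood above the other cultures, and all 4 were above both whole DG. The log2 difference was 1.63 ± 0.56 (SE; edgeR adjusted p = 0.0265). The call was lost without whole DG F1 (1.88, adjusted p = 0.0767), without whole DG M2 (1.40, adjusted p = 0.152) and with libraries of the same name blocked (0.87, adjusted p = 0.0553). With length and GC trends removed it was 2.77.

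The LTBPs also parted. Ltbp1 (chr17:75005568-75392512, plus strand), which anchors latent complexes to fibrillin, had 5.62, 8.58, 7.74 and 7.61 CPM in cultures F1, F2, M1 and M2, against 4.97 and 3.77 CPM in whole DG F1 and M2. The groups did not overlap, and the log2 difference of 0.76 ± 0.28 (SE) passed narrowly (edgeR adjusted p = 0.0368). It lost its call without each library except culture F1 (adjusted p = 0.0543 without culture M1 to 0.247 without whole DG M2), and in 10 of 14 alternatives in all.

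Ltbp3 (chr19:5740904-5758532, plus strand), which is secreted bound to latent TGF-beta, had 4.30, 7.37, 7.45 and 3.90 CPM in cultures F1, F2, M1 and M2, against 21.5 and 23.96 CPM in whole DG F1 and M2. All cultures were well below both whole DG, and the log2 difference was -1.98 ± 0.30 (SE; edgeR adjusted p = 0.000366). Ltbp3 exons are 60.3% G and C, and with trends of gene length and GC content removed its difference was -0.30 and not called (adjusted p = 0.385), so its call rests on that setting. In every other alternative it was called.

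**Figure D3:**
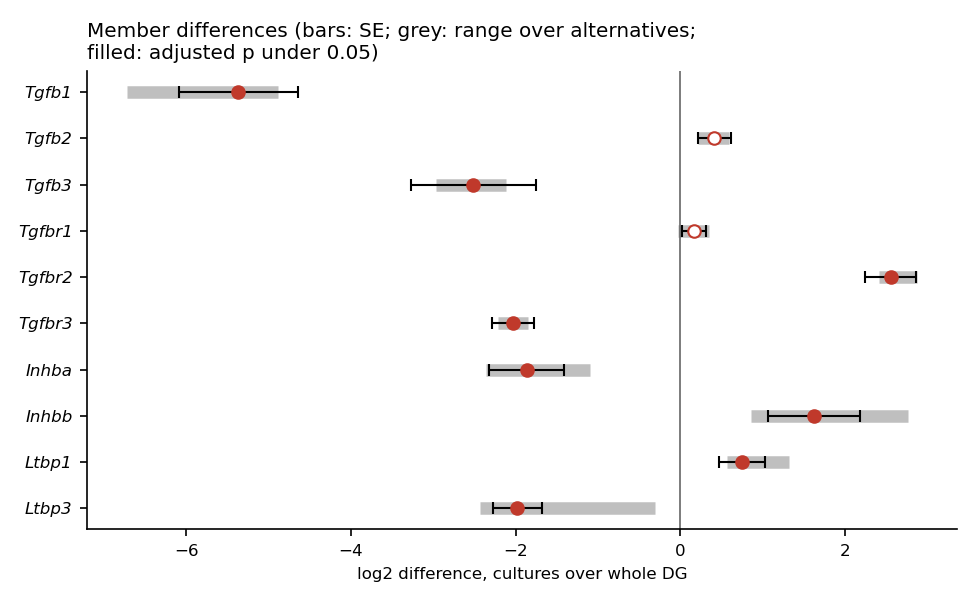
Log2 difference of each member, cultures over whole DG (horizontal axis), with black bars for the SE and grey bands for the range over the alternative settings. Filled points passed an adjusted p under 0.05 in edgeR's quasi-likelihood test. The band of Ltbp3 reaches -0.30, and those of Tgfb2 and Tgfbr1 lie close to 0.

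Levels of different bulk members were compared per unit of exon length, here the bases covered by exons of any transcript. That length can exceed the length of a gene's single transcripts, so the order is approximate. In cultures Tgfb2 led at 13.6 ± 2.78 CPM per kilobase (SD, n = 4), followed by Tgfbr2 at 9.62 ± 2.97 and Tgfbr1 at 7.48 ± 0.816, and the ranges of neighbours in this order overlapped. Inhbb came next at 3.06 ± 2.00 CPM per kilobase, below the lowest Tgfbr1 value in every culture. Ltbp1, Ltbp3, Tgfbr3 and Tgfb3 averaged 0.462 to 0.691 CPM per kilobase in cultures and overlapped with one another, and Inhba (0.160) and Tgfb1 (0.0183) came last. In whole DG the order began with Tgfb2 (10.2 CPM per kilobase, n = 2) and Tgfbr1 (6.66), but Tgfb3 (2.64), Ltbp3 (2.51) and Tgfbr3 (2.47) stood next, above Tgfbr2 (1.63) and Inhbb (0.991). Tgfb1 (0.821), Inhba (0.586) and Ltbp1 (0.409) closed it.

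Female and male cultures were compared by the same test. None of the 9 members tested was called (0 of 9 by edgeR and by DESeq2), against 0.0264% of all 15140 genes (0.00661% higher and 0.0198% lower in female cultures), and 1 of the 9 had an unadjusted p under 0.05. That gene was Tgfbr2, at 99.6 ± 3.13 CPM in female cultures and 57.9 ± 5.09 CPM in male cultures (SD, n = 2 each). Both female cultures lay above both male cultures, with a log2 difference, female over male, of 0.78 ± 0.16 (SE; edgeR unadjusted p = 0.00236, adjusted p = 0.715), so it failed the correction. Tgfbr3 was separated the other way, at 3.22 and 3.38 CPM in female and 3.82 and 5.37 CPM in male cultures (edgeR adjusted p = 0.881). The shares of all genes separated by sex, or with an unadjusted p under 0.05, were not counted, so neither trait marks these members out. The adjusted p of Tgfbr2 was 0.738 by edgeR with RLE factors, 0.0759 by DESeq2 and 0.0175 by edgeR without the filter on low counts. With each culture left out in turn its log2 difference was 0.68 to 0.86, resting on 1 culture of that sex. In whole DG the female library had 12.8 CPM and the male 13.9 CPM. With 1 whole DG library of each sex, a sex-by-group interaction assumes that these vary like the cultures. It was called for 0 of 10 members and 0% of 19100 genes, which says nothing of whether the sexes differ alike in both groups (Tgfbr2, edgeR unadjusted p = 0.0295, adjusted p = 1.00).

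Around the members, the rest of the pathway was read from 7 lists, in which 17 called genes were higher and 39 lower in cultures, a gene on 2 lists counting once. Over all genes tested, 35.6% were higher, 41.7% lower and 77.3% called, and each list is read against these shares. The proteins that hold and release latent TGF-beta moved both ways: of 16 tested, 6 were higher, 6 lower and 4 not called (median log2 difference -0.41). Itgb1, the beta 1 integrin subunit, averaged 1458 ± 17.8 CPM in cultures (SD, n = 4) and 43.5 ± 8.52 CPM in whole DG (SD, n = 2). Its partner Itgav, which forms the integrins that free latent ligand, averaged 133.6 ± 56.6 and 56.3 ± 2.06 CPM in cultures and whole DG (edgeR adjusted p = 0.0136), a call lost without whole DG F1 (adjusted p = 0.0686) or M2 (0.0817). Itgb8, an integrin subunit known on neural progenitors and glia for activating TGF-beta, averaged 83.1 ± 18.7 CPM in cultures and 102.6 ± 5.12 CPM in whole DG and did not pass (adjusted p = 0.206). Fbn2, a fibrillin of the matrix to which LTBPs bind, rose by 4.39 on the log2 scale (95.4 ± 45.8 CPM in cultures, 4.52 ± 0.828 CPM in whole DG), and Thbs1, a secreted activator of latent TGF-beta, by 3.59 (21.6 ± 11.8 and 1.78 ± 0.235 CPM). Itgb5 fell by 4.38 (2.05 ± 0.883 CPM in cultures, 43.1 ± 2.97 CPM in whole DG).

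Of 13 other ligands of the TGF-beta and activin branch, 6 were tested, of which 2 were higher and 4 lower in cultures (median -1.80). Gdf15, a stress-induced ligand that signals through a brainstem receptor, averaged 26.8 ± 6.09 CPM in cultures (SD, n = 4) and 0.186 ± 0.0807 CPM in whole DG (SD, n = 2). Gdf10, a relative of the bone morphogenetic proteins, had 0 counts in all 4 cultures and 775 counts in the 2 whole DG. Gdf11, a close relative of myostatin, averaged 8.20 ± 2.02 and 29.2 ± 1.07 CPM in cultures and whole DG, and Gdf1, a partner of Nodal, 19.6 ± 7.57 and 66.3 ± 0.222 CPM. The Gdf1 call was lost with length and GC trends removed (-0.56, adjusted p = 0.109).

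All 5 tested activin receptors and co-receptors were lower in cultures (median -3.18), as were 41.7% of all genes tested. Acvr1b, the type I receptor of activins, averaged 2.11 ± 0.895 CPM in cultures (SD, n = 4) and 155.2 ± 3.13 CPM in whole DG (SD, n = 2). Acvr1c, another type I receptor, had 3 counts in the 4 cultures together and 1371 in the 2 whole DG. Acvr2a, an activin type II receptor, fell by 1.53 on the log2 scale, to 35.3 ± 6.08 CPM in cultures, against 101.9 ± 13.02 CPM in whole DG. Ligand antagonists fell as well, 5 of 5 tested (median -3.87). Dcn and Bgn, small matrix proteoglycans that bind TGF-beta, averaged 0.948 ± 0.589 and 0.0239 ± 0.0478 CPM in cultures, against 11.2 ± 7.42 and 6.27 ± 1.55 CPM in whole DG. Igsf1, once described as an inhibin-binding protein, had 0.119 ± 0.239 CPM in cultures and 17.8 ± 5.18 CPM in whole DG. Dcn and Bgn are also made by mural cells and fibroblasts, whose markers fell as given above, and the part of those cells was not tested. The Dcn difference of -3.55 was -2.64 without whole DG F1. Culture M1 held all culture reads of Bgn (1) and Igsf1 (5), and without it both were at 0 counts in cultures and still called (edgeR adjusted p = 0.000329 and 0.000110).

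Of 7 Smads and cofactors tested, 1 was higher, 5 lower and 1 not called (median -2.09). Smad2, the one that rose, averaged 43.9 ± 3.20 CPM in cultures (SD, n = 4) and 26.5 ± 2.66 CPM in whole DG (SD, n = 2). It is given although the naming rule does not include it. Smad3, its partner, fell by 2.09 on the log2 scale, to 37.1 ± 2.89 CPM in cultures, against 158.3 ± 28.0 CPM in whole DG, and Smad4, the common Smad, by 3.47, to 5.29 ± 0.705 CPM, against 58.7 ± 3.05 CPM. Zfyve9, which anchors Smads at endosomal receptors, fell by 3.31. Hgs, an endosomal sorting protein, did not pass (99.8 ± 15.2 and 75.7 ± 2.17 CPM in cultures and whole DG, adjusted p = 0.0520), but it was higher in cultures in 6 of 15 alternatives, among them without culture F2 (0.48, adjusted p = 0.0223), without culture M1 (0.46, adjusted p = 0.0354) and with length and GC trends removed (1.00, adjusted p = 0.000705). Crebbp, a histone acetyltransferase that Smads recruit, had a log2 difference of -0.39 (edgeR adjusted p = 0.0167), which turned to 0.42 (adjusted p = 0.0137) with length and GC trends removed. The Crebbp call was lost in 5 other alternatives, among them without whole DG F1 (adjusted p = 0.0985) and without whole DG M2 (0.0963), so its direction is uncertain.

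Of 12 inhibitors of the signal, 8 were lower, 2 higher and 2 not called (median -2.72), against 41.7% lower and 35.6% higher over all genes tested. Ski, a repressor that binds Smads, averaged 11.8 ± 1.65 CPM in cultures (SD, n = 4) and 234.8 ± 5.92 CPM in whole DG (SD, n = 2). Its relative Skil averaged 17.5 ± 1.33 and 103.1 ± 10.5 CPM in cultures and whole DG, the Smad phosphatase Ppm1a 9.26 ± 1.59 and 159.4 ± 11.1 CPM, and Pmepa1, a membrane protein that sequesters Smads, 1.14 ± 0.369 and 23.7 ± 3.83 CPM. Tgif2, a homeodomain repressor, went the other way, at 64.2 ± 12.8 CPM in cultures and 5.98 ± 1.43 CPM in whole DG. Single-cell levels of Ski, Ppm1a and Pmepa1, which lay far from these bulk culture values, are given further below.

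Of 19 tested genes that TGF-beta is known to induce in other cells, 6 were higher, 10 lower and 3 not called (median -0.52), so the list had no common direction. Cdkn1a and Cdkn2b, inhibitors of cyclin-dependent kinases, averaged 711.2 ± 98.8 and 30.0 ± 8.93 CPM in cultures (SD, n = 4), against 9.05 ± 1.62 and 0.315 ± 0.102 CPM in whole DG (SD, n = 2). Tnc, a matrix glycoprotein of stem cell niches, ran from 573.8 CPM in culture M1 to 3071 CPM in culture F2, against 11.1 and 14.6 CPM in whole DG F1 and M2. Ctgf, a matricellular protein now also named Ccn2, averaged 42.5 ± 22.03 and 1.67 ± 0.558 CPM in cultures and whole DG, and Klf10, an early-response transcription factor, 216.3 ± 47.9 and 25.8 ± 6.09 CPM. Pmepa1 and Skil are on this list too and were lower.

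**Figure D4:**
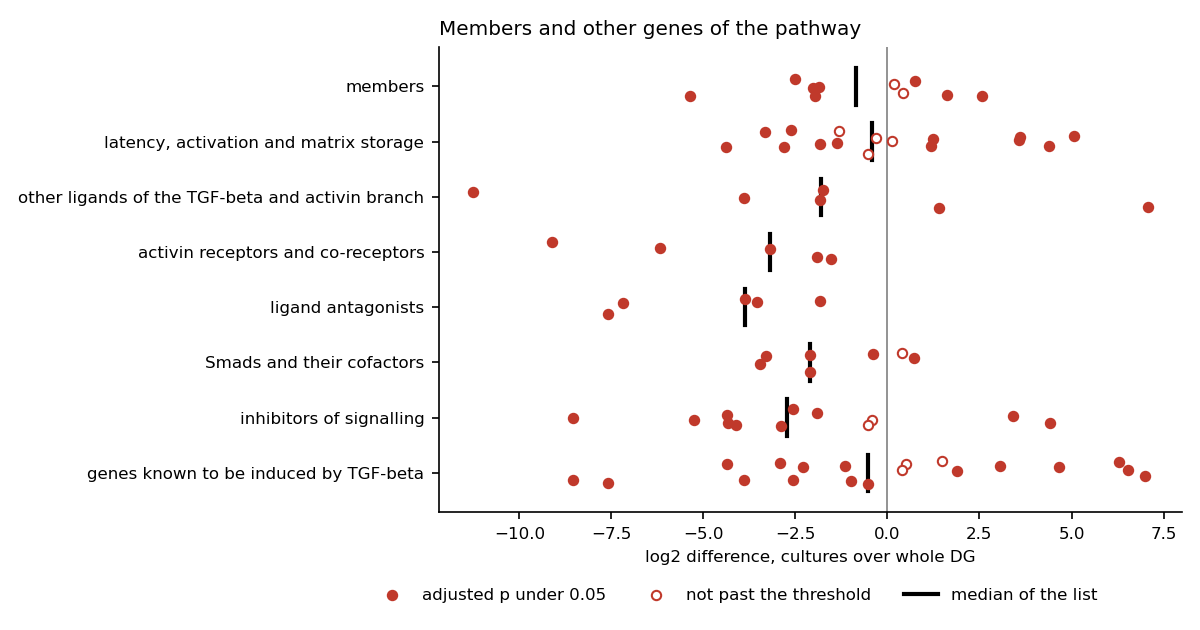
Log2 difference, cultures over whole DG (horizontal axis), of the members and of each tested gene in 7 further lists of the pathway, with filled points for an adjusted p under 0.05 (edgeR) and black bars for list medians. Members spread to both sides of 0, while every tested activin receptor and ligand antagonist lies to the left.

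The single-cell library gave a second reading of NSPC cultures, in UMIs, which count captured molecules. Whether its pooled cultures are among those of the bulk libraries is not known here. It is 1 library, so values across its clusters have no replicate and no test, and intervals cover counting error only. The 10 members together had 5357 UMIs, and 4427 cells (29.7%) held at least 1 of them. Levels are given as UMIs per 1000000 (UPM). Tgfb2 had 42.5 UPM (95% Poisson interval 40.9 to 44.1) and was found in 15.9% of cells, and it made up 99.1% of the 2676 UMIs of the 3 Tgfb ligands. Tgfbr2 had 12.9 UPM (5.20% of cells), Tgfbr1 9.63 (3.90%), Ltbp3 9.34 (3.85%), Inhbb 5.99 (2.42%) and Ltbp1 3.86 (1.56%). The remaining members were rare, with 49 UMIs of Inhba, 29 of Tgfbr3, 18 of Tgfb1 and 7 of Tgfb3 in 62412600 UMIs. No cell type that should lack these genes is named in the library, so a level of free RNA could not be set beside these shares. Tgfb2 led the ligands in the bulk cultures and in this library. Tgfb1 was rare in both, whereas Tgfb3, with 7 UMIs here, had 2 to 32 counts in each bulk culture. The order of members differed between the readings. Ltbp3 stood above Inhbb in UMIs but below it in bulk cultures (0.635 and 3.06 CPM per kilobase). Stem and progenitor markers summed to 8230 UPM in this library, dividing-cell markers to 3507 and oligodendrocyte-lineage markers to 1629 UPM. Astrocyte markers summed to 480.3, neuronal markers to 310.7, microglial markers to 16.4, mural and fibroblast markers to 10.85 and endothelial markers to 3.27 UPM. The library held 7 of 11 oligodendrocyte-lineage genes, 9 of 10 astrocyte, 11 of 12 neuronal and 9 of 12 endothelial genes. It held only 2 of 12 microglial and 3 of 12 mural and fibroblast genes. Median depth ran from 3431 UMIs per cell in cluster 1 to 5270.5 in cluster 4.

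Across clusters the 2 receptors and the ligand varied modestly, by at most 2.28 times between 2 clusters (Tgfbr1 after thinning). Tgfb2 had 52.0, 40.7, 33.9, 45.7, 37.4 and 47.0 UPM in clusters 0 to 5. It was highest in cluster 0 (48.4 to 55.8) and lowest in cluster 2 (31.1 to 37.0), a ratio of 1.53, and 1.54 after each cell was thinned to 2000 UMIs. Ordered by level, from cluster 0 through 5, 3, 1 and 4 to 2, the intervals of neighbours overlapped at each step. The share of cells with a Tgfb2 UMI was 17.6, 13.1, 14.6, 17.3, 17.4 and 17.9% in clusters 0 to 5, and 9.94, 7.43, 6.53, 8.80, 7.07 and 9.43% after thinning. Dividing-cell markers summed to 3134, 2916, 3944, 3310, 4806 and 3016 UPM in clusters 0 to 5. Clusters 2 and 4, with the lowest Tgfb2, were the 2 with the most of these markers. Cluster 1, with the fewest of them, had the next lowest Tgfb2 (40.7 UPM). Before thinning, cluster 1 also had the lowest share of cells with a Tgfb2 UMI (13.1%). This describes 6 clusters without a common order, and the relation was not tested.

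Tgfbr1 had 6.95, 9.98, 11.4, 11.1, 10.4 and 7.66 UPM in clusters 0 to 5, so that cluster 0, where Tgfb2 was highest, was lowest for this receptor. The interval of cluster 0 (5.68 to 8.41) lay below that of cluster 2 (9.80 to 13.2), and after thinning cluster 4 was highest (13.7) and cluster 0 still lowest (5.99). Tgfbr2 had 14.2, 14.2, 10.4, 12.4, 12.3 and 15.8 UPM in clusters 0 to 5. Its highest and lowest clusters, 5 and 2, had intervals that did not touch with all UMIs but overlapped after thinning. Ltbp1 was lowest in cluster 5 (1.31, 0.482 to 2.86) and highest in cluster 3 (4.83, 3.43 to 6.60), and these intervals too overlapped after thinning. The intervals of Inhbb (4.95 to 6.95 UPM across clusters) and Ltbp3 (7.81 to 12.3) overlapped between their extremes. Tgfb3 had 0 UMIs in cluster 3 (1910 cells) and cluster 5 (1092 cells), which allows a share of cells with a UMI of up to 0.157% and 0.275% by a floor of 3 cells, and up to 0.193% and 0.337% by the 95% exact binomial limit. Each of Tgfb1, Tgfb3, Tgfbr3 and Inhba had too few UMIs to order the clusters.

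**Figure D5:**
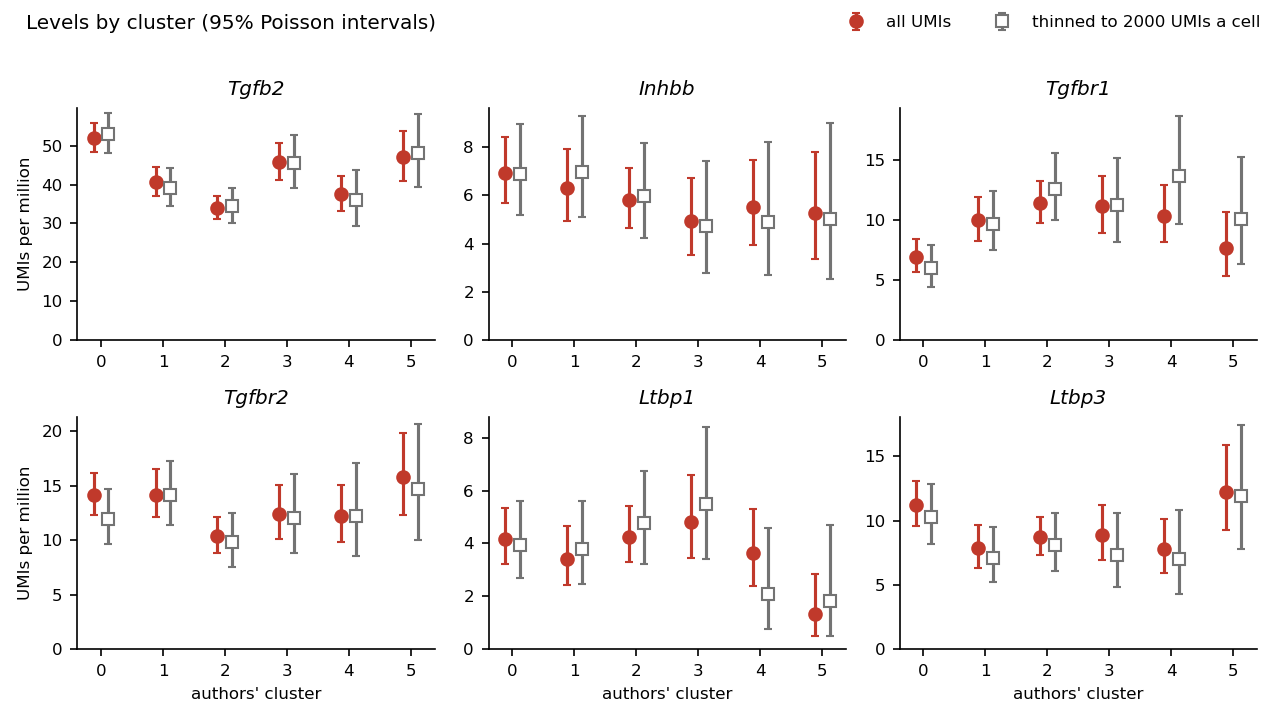
UMIs per 1000000 (vertical axes, from 0) of the 6 members with 100 UMIs or more, by the authors' cluster, with all UMIs (filled circles) and with each cell thinned to 2000 UMIs (open squares). Bars are 95% Poisson intervals. Tgfb2 stands highest in cluster 0 and lowest in cluster 2, and Tgfbr1 lowest in cluster 0.

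Ligand and receptor were seldom caught in the same cell at this depth. After thinning, 33 of the 1220 cells with a Tgfb2 UMI also had a Tgfbr2 UMI (2.70%, 95% exact binomial interval 1.87 to 3.78%), against 2.37% (2.12 to 2.64%) of the 13692 cells without Tgfb2. For Tgfbr1 the shares were 1.89% (1.20 to 2.82%) of cells with and 1.96% (1.73 to 2.20%) of cells without a Tgfb2 UMI. Of cells with a Tgfbr1 UMI 1.72% (0.560 to 3.96%) also had a Tgfbr2 UMI, against 2.41% (2.17 to 2.67%) of cells without. The intervals overlapped in all 3 pairs, so no difference was detectable at this depth.

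For the 2 members with most UMIs, the genes of most similar pattern over the 6 clusters were taken by Pearson r of log2 UPM among 8203 genes with 500 UMIs or more. For Tgfb2 these were Gas2l1 (r = 0.996), Fam234a (0.992) and Trpc4ap (0.992), and for Tgfbr2 Ubxn4 (0.997), Asna1 (0.990) and Paip2 (0.990). With 6 points that share 1 library, 199 genes had r over 0.9 with Tgfb2 and 123 with Tgfbr2, so these names are a description only.

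For some genes of the wider pathway the bulk and single-cell levels in cultures lay far apart. Smad4 averaged 5.29 CPM in bulk cultures and had 42.3 UPM in single cells, Ski 11.8 CPM and 49.9 UPM, and Ppm1a 9.26 CPM and 75.3 UPM. Smad7, the inhibitory Smad, had 1 count in the 4 bulk cultures together but 138 UMIs (2.21 UPM). The reverse held for Hgs, with 99.8 CPM and 6 UMIs (0.0961 UPM). The 2 scales differ in unit and in how transcripts are captured, and may come from different cultures, so they are set side by side without a test. These 5 genes were picked for that gap after their values were seen. Other genes named above, picked likewise, had gaps too. Pmepa1 averaged 1.14 CPM in bulk cultures and had 6.46 UPM, and Itgb5 2.05 CPM and 12.2 UPM. The reverse held for Thbs1, with 21.6 CPM and 1.28 UPM, and Ctgf, with 42.5 CPM and 3.32 UPM. Among the members, Ltbp3 averaged 5.76 CPM in bulk cultures and had 9.34 UPM, Tgfb2 78.7 CPM and 42.5 UPM, and Tgfbr2 78.7 CPM and 12.9 UPM.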

How the data were processed

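Polyadenylated RNA of 4 NSPC cultures and 2 whole DG was sequenced as paired ends, and 3 cultures were pooled for 1 single-cell library. Groups, sex and library names were taken from the labels. The labels call the cultures separate. The p-values thus rest on the variation among 4 cultures and 2 whole DG libraries. The bulk table holds raw counts per gene, deposited by the authors and not normalized. Per the submitters' processing notes, CASAVA 1.8.2, HISAT2 2.0.6, Subread and featureCounts were used with the human assembly GRCh38, although the symbols are mouse symbols. Whether counting used strand is not stated by those notes or the labels. Gene lengths, positions and GC content came from GENCODE M21 on GRCm38, in which 47674 of 50600 entries (94.2%) were found. The deposited single-cell values are on a natural log scale, ln(1 + x), where x is a gene's UMIs in 10000 of that cell, and came from Cell Ranger 3.1.0 and Seurat 3.1.0 per the submitters' processing notes.

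The bulk test was edgeR's robust quasi-likelihood F test (4.0.16, R 4.3.3) with TMM factors, filterByExpr and Benjamini-Hochberg adjusted p-values over every gene kept, called under 0.05. Group was the only term, and sexes were compared likewise in the 4 cultures. Exon length, the bases covered by exons of any transcript of a gene, gave CPM per kilobase. DESeq2 1.42.0, other scalings and filters, each library left out, a block on library name, a sex term and removal of length and GC trends were alternatives, and the test was tested on simulated data. There it recovered 46% of 2-fold and 92% of 4-fold changes between cultures and whole DG, with 5 false calls. Between the sexes it recovered 48 and 79%, with 3 false calls. A gene that is not called may thus still differ. UMIs were recovered with 100% of entries within 0.01 of a whole number. Cells held 2001 to 8531 UMIs (median 4048.5). All deposited cells were kept, without a doublet caller, in the authors' clusters. Thinning to 2000 UMIs left out 0 cells. Intervals and floors cover counting error only, since bulk reads carry no molecular identifiers. Genes with 3 counts or fewer over the cultures lay below the median of each pathway list they are on, so their exact size does not move those medians.

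The members and lists were chosen with earlier results of these data known. Besides the 10 members, the 3 most abundant genes of each list were named, with any called gene of at least 3 in absolute log2 difference and 20 CPM in the higher group, and the 3 genes most alike to each of the 2 members with most UMIs.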

Additional observations from a re-analysis of the deposited data

How the results depend on the processing

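Tgfb1, Tgfbr2 and Tgfbr3 kept direction and call in all alternatives that gave a value, and Tgfbr1 was called in none. RLE factors and DESeq2 each moved the median of all genes by -0.10 on the log2 scale, upper quartile factors by 0.18 and total counts by 0.13. Tgfb2 was called with the last 2 (0.60 and 0.55, which leaves 0.42 after the shift). Ltbp1 lost its call with RLE factors (0.65), DESeq2 (0.65), no filter (0.74) and a sex term (0.76), Tgfb3 with no filter (-2.53), and Ltbp3 with length and GC trends removed (-0.30), where Crebbp turned to 0.42. A stricter filter (10 CPM in 2 libraries) left 2 members lower instead of 5 and no value for Tgfb1, Tgfb3, Inhba and Ltbp1. With no filter, Tgfbr2 was called between the sexes (0.77), 1 member instead of 0. Without division by length the share differences were 16.2 points for Tgfb2 (22.1 with it) and -10.6 for Tgfb3 (-16.3).

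With the replicate block on library names (F1, M2), 1 member was higher instead of 3, and Inhba (-1.70), Inhbb (0.87) and Ltbp1 (0.63) lost their calls. The labels do not say whether libraries of 1 name come from the same animal. F1 minus M2 in cultures against the same in whole DG had a Pearson r of 0.067 over 18088 genes.

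Leaving out each library in turn gave 1 to 4 members higher and 3 to 5 lower, with log2 differences of 0.28 to 0.51 for Tgfb2, -2.97 to -2.12 for Tgfb3, -2.36 to -1.09 for Inhba, 1.08 to 1.88 for Inhbb and 0.57 to 0.97 for Ltbp1. The cause of these shifts was not tested. On thinning, 6 of 60 single-cell levels moved beyond their interval. Low counts limit Tgfb1, Inhba and Tgfb3.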
